A study of Homo sapiens with 30 samples.

Results

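The cytosolic heat shock chaperones described here are 10 genes of the 16975 listed in the study's processed table. They were chosen by name for their roles as Hsp70, Hsp90, co-chaperones and targets of the heat shock factor HSF1, with earlier results of these data known. They are HSPA8, HSPH1, DNAJB1, HSPBP1, HSP90AA1, HSP90AB1, HSPD1, HSPE1, HSPB1 and BAG3. All 10 were listed and all 10 were among the 11191 genes tested. HSP90AA1, whose reads could not be recovered, was kept without the filter on low reads, which the others passed. HSPD1 and HSPE1 are encoded in the nucleus but their proteins work as the chaperonin and co-chaperonin of the mitochondrial matrix, so the name cytosolic fits the other 8.

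RNA levels came from 3' RNA-seq, in which tags from the 3' ends of transcripts are counted, in 30 samples of a human embryonic kidney line, 3 in each of 10 groups. In 8 groups a single gene had been targeted by CRISPR in HEK28, a HEK293 derivative that secretes coagulation factor VIII. The targets were CANX and CALR, which bind sugar chains on new glycoproteins in the endoplasmic reticulum, LMAN1 and MCFD2, the cargo receptor by which factor VIII leaves it, GABARAP, GABARAPL1 and GABARAPL2, ubiquitin-like proteins of autophagosome membranes, and ATG7, which activates them for conjugation to lipid. The other groups were HEK28 itself, with none of these genes targeted, and the parental HEK line. The knockouts were made in HEK28 cells, and all cells were grown without treatment to about 70% confluency. Each knockout is 1 numbered line in the titles, and the labels do not say whether its 3 samples were separate cultures, so the spread behind each p-value may be a technical one.

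Hsp70 proteins such as HSPA8 bind short hydrophobic stretches of unfolded chains and release them in a cycle driven by ATP. J-domain proteins such as DNAJB1 load the chains and speed up ATP hydrolysis, and exchange factors such as HSPH1, HSPBP1 and BAG3 remove the ADP so that the chain is released. Hsp90 takes over partly folded kinases and receptors from Hsp70, small heat shock proteins such as HSPB1 hold unfolding proteins in a soluble state, and HSF1 raises many of these genes when unfolded protein accumulates.

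Reads in genes ran from 150534 to 3948075 per library, with a median of 614082. HEK28 replicates 1 and 2 stood apart from the rest in transcripts far below a predicted level. The prediction was the mean level over the 24 knockout libraries, at the depth of each library. Of the transcripts with at least 10 predicted reads, 2.92% and 3.58% had under 10% of the prediction there. The share was 0.116% in HEK28 replicate 3, 0.0304% to 0.906% in the knockout libraries and 1.19% to 1.72% in the parental libraries. Knockout libraries are part of their own prediction, so the measure shows unlikeness to the knockouts and favours low shares among them. Fold changes printed for HEK28 against the parental line, and counts of members that passed against HEK28, are therefore given with and without HEK28 replicates 1 and 2. The targeted transcript was below the other 7 knockout lines in every library of 4 lines (CANX, CALR, LMAN1 and MCFD2) and overlapped them in the other 4, and 3' tags need not see a small edit. Of 8 transcripts of the HEK293 lineage all were listed and 7 were tested. Among them the neurofilament genes NEFM and NEFL had median log2 levels of 13.79 and 11.53, while PAX2 had 72 reads in all and was not tested, and INA had 62 reads and 0 in 13 libraries. The summed level of the list ran from 13100 to 26100 in the knockout libraries, 19600 to 27100 in HEK28 and 10700 to 12200 in the parental line. Of the fibroblast, blood, epithelial and hepatocyte markers 1 of 7, 5 of 10, 2 of 7 and 0 of 6 were listed. PTPRC, the defining leukocyte gene, had 88 reads in all and 0 in 13 libraries, and the globin genes HBA1 and HBB had 734 and 528 reads and 0 in 11 libraries each. CDX2, an intestinal epithelial factor, had 826 reads and 0 in 1 library, and COL1A1 had 550 reads. CDX2 fell by 2.30 in HEK28 against the parental line (limma adjusted p = 0.00437), and HEK28 replicate 3 alone gave 0.05. The part of these markers in the results was not tested. In bulk RNA, fewer cells of a kind and less RNA per cell cannot be told apart.

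Of the 10 genes, 6 hold heat shock element letters close to a transcription start, and these stretches are shown because HSF1 binds repeats of the unit GAA in alternating orientation. RefSeq promoter windows (GRCh38.p14, 250 bases before each start) were found for all 10 genes, and 35116 windows of the RefSeq table were searched on both strands for the 2-unit motifs GAANNTTC and TTCNNGAA, which read the same on both strands, and for the 3-unit motifs GAANNTTCNNGAA and TTCNNGAANNTTC, which contain them. A 2-unit motif was present in 11.6% of all windows and a 3-unit motif in 0.441%. The 10 genes have 18 such windows, of which 6 held a 2-unit motif (33.3%) and 4 a 3-unit motif (22.2%). These 6 windows belong to 6 genes, and the 3-unit motifs to HSPD1, HSP90AB1, HSPA8 and HSP90AA1. HSPH1, HSPBP1, HSPE1 and BAG3 had none of these letters in their windows. Each stretch is written 5′ to 3′ on the gene's own strand with the motif in capitals.
HSPA8, chr11:123062346-123062375, minus strand, motif 230 to 218 bases before the start: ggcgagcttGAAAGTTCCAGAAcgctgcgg
HSPA8, chr11:123062171-123062200, minus strand, motif 55 to 43 bases before the start: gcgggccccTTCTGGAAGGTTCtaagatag
DNAJB1, chr19:14518456-14518485, minus strand, motif 77 to 70 bases before the start: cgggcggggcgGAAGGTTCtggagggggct
DNAJB1, chr19:14518426-14518455, minus strand, motif 47 to 40 bases before the start: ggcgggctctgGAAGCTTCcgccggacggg
HSP90AA1, chr14:102087104-102087133, minus strand, motifs 88 to 61 bases before the start: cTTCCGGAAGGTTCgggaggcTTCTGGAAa
HSP90AB1, chr6:44247769-44247798, plus strand, motif 165 to 153 bases before the start: gggagcaggTTCTGGAAGATTCatgggctc
HSP90AB1, chr6:44247822-44247851, plus strand, motif 112 to 100 bases before the start: ctgagattgTTCTGGAAGCTTCtggattct
HSPD1, chr2:197500061-197500090, minus strand, motifs 245 to 228 bases before the start: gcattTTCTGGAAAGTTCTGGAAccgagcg
HSPB1, chr7:76302480-76302509, plus strand, motif 182 to 175 bases before the start: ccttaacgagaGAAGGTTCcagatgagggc
These matches describe the letters and carry no measurement of binding.

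On GRCh38 the genes lie on several chromosomes, with HSPD1 at chr2:197486581-197516737 on the minus strand and HSPE1 at chr2:197499994-197503457 on the plus strand sharing 1 stretch. HSP90AB1 is at chr6:44246166-44253888, HSPB1 at chr7:76302544-76304295 and BAG3 at chr10:119651370-119677819, all on the plus strand. HSPA8 is at chr11:123057489-123063230, HSPH1 at chr13:31134974-31162388 and HSP90AA1 at chr14:102080738-102139699, all on the minus strand. DNAJB1, at chr19:14514770-14529770, and HSPBP1, at chr19:55262231-55280381, share a chromosome and strand. All 10 are protein-coding genes.

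The values are the authors' deposited log2 levels, a level per unit of a gene's counted length and per library, known up to a constant. They are comparable between libraries for 1 gene, and levels of different genes are not ranked here. The plot of all 10 genes by library gives every value.

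**Figure D1:**
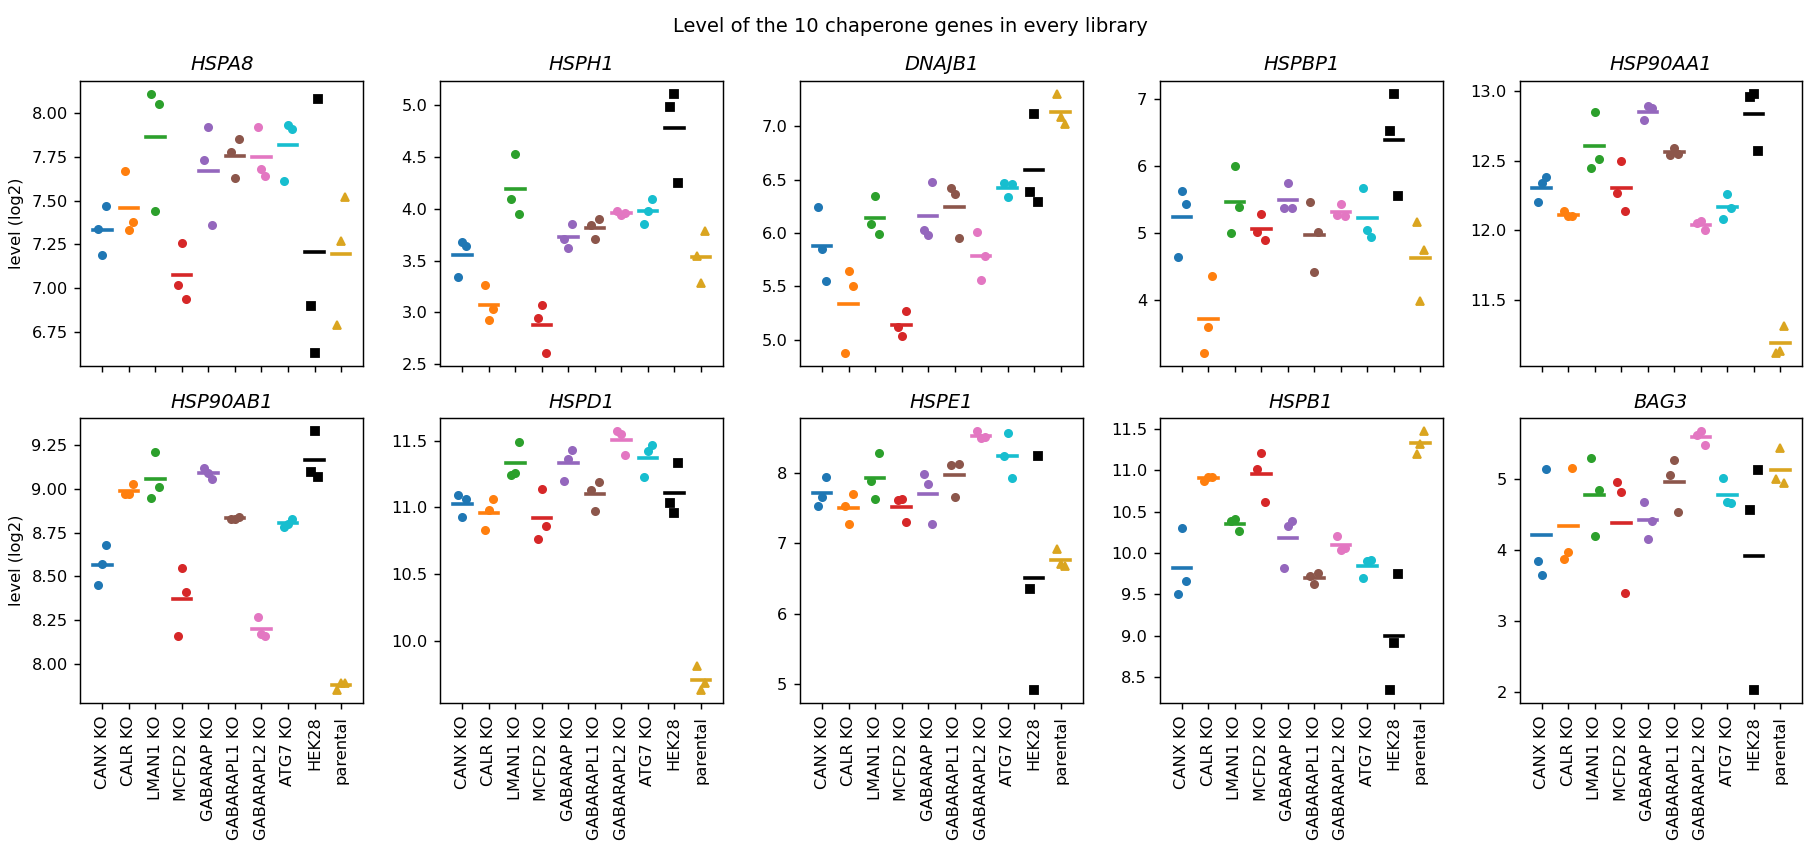
Log2 level (vertical axis) of each of the 10 chaperone genes in all 30 libraries, by group along the horizontal axis, points being libraries and bars group means. The 3 parental libraries lie below all others for HSP90AA1, HSP90AB1 and HSPD1, and HEK28 replicates 1 and 2 lie lowest of all libraries for HSPE1.

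Against the parental line, the HEK28 lineage carried more RNA of both Hsp90 genes and of the HSPD1 chaperonin and less of the small heat shock protein HSPB1, in HEK28 and in the mean of its 8 knockouts alike. In HEK28 against the parental line 6 of the 10 genes passed an adjusted p of 0.05 (limma, Benjamini-Hochberg over all 11191 genes), where 32.1% of all tested genes did. In the mean of the 8 knockouts against the parental line 6 of 10 passed, where 37.6% of all genes did. With HEK28 replicate 3 as its only library, 6 of 10 passed, where 22.1% of all genes did. These comparisons share the parental libraries. The shares are descriptions, since the members were chosen with earlier results of these data known. HSP90AB1, HSP90AA1, HSPB1, HSPD1, HSPH1, HSPA8, DNAJB1 and HSPE1 also vary less within knockout lines than the median tested gene. The median log2 fold change of the 10 genes was 0.62 in HEK28, against -0.06 over all genes (0.90 against 0.13 with replicate 3 alone), and 0.41 in the mean of the knockouts, against 0.10 over all genes.

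Both Hsp90 genes were higher in every library of the HEK28 lineage. HSP90AA1, the stress-inducible cytosolic Hsp90, had log2 levels of 12.0 to 12.89 with a median of 12.31 in the 24 knockout libraries, 12.96, 12.98 and 12.57 in HEK28, and 11.12, 11.13 and 11.31 in the parental line. Every library of the HEK28 lineage was above every parental library. Such a lack of overlap was seen, upwards and downwards, in 8.09% and 5.47% of all tested genes for the knockouts and in 15.9% and 14.4% for HEK28. The log2 fold change was 1.18 ± 0.082 (SE) for the mean of the knockouts against the parental line (2.27-fold, limma adjusted p = 8.99e-11) and 1.65 ± 0.11 for HEK28 against it (3.14-fold, limma adjusted p = 9.26e-11). HSP90AB1, the constitutive cytosolic Hsp90, had 8.16 to 9.21 with a median of 8.83 in the knockouts, 9.1, 9.33 and 9.07 in HEK28, and 7.85, 7.89 and 7.89 in the parental line, again with no overlap. It was 1.82-fold higher in the mean of the knockouts (limma adjusted p = 4.17e-08) and 2.44-fold higher in HEK28 (limma adjusted p = 1.64e-08) than in the parental line. With HEK28 replicate 3 as the 1 HEK28 library, the log2 fold changes against the parental line were 1.39 for HSP90AA1 (limma adjusted p = 2.47e-07) and 1.19 for HSP90AB1 (limma adjusted p = 9.05e-06). Reads of HSP90AA1 could not be recovered from the deposited values, and HSP90AA1 overlaps WDR20 in the annotation.

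The chaperonin pair separated in HEK28 replicates 1 and 2 but not in replicate 3. The log2 difference of HSPE1 over HSPD1 was -4.66, -6.04 and -3.09 there, beside -4.15 to -2.85 in the knockouts. HSPD1, the Hsp60 chaperonin, had 10.76 to 11.57 with a median of 11.2 in the knockouts, 11.03, 10.96 and 11.33 in HEK28, and 9.81, 9.63 and 9.68 in the parental line. It was 2.8-fold higher in the mean of the knockouts (log2 1.49 ± 0.089 SE, limma adjusted p = 6.84e-12) and 2.64-fold higher in HEK28 (1.40 ± 0.119, limma adjusted p = 6.36e-09), and no library of the lineage overlapped the parental ones. With HEK28 replicate 3 alone it was 1.62 (limma adjusted p = 1.9e-07). HSPE1, the Hsp10 lid of that chaperonin, had 7.27 to 8.59 with a median of 7.86 in the knockouts, 6.36, 4.92 and 8.24 in HEK28, and 6.92, 6.71 and 6.68 in the parental line. HEK28 replicates 1 and 2, with 12 and 11 reads of HSPE1, lay below the parental libraries, and HEK28 replicate 3, with 84 reads, lay within the knockout range. HSPE1 was 2.17-fold higher in the mean of the knockouts than in the parental line (log2 1.12 ± 0.334, limma adjusted p = 0.0107), and HEK28 against the parental line gave -0.27 ± 0.445 (limma adjusted p = 0.692). With HEK28 replicate 3 alone the difference from the parental line was 1.47 (limma adjusted p = 9.87e-04). HSPD1 and HSPE1 overlap each other in the annotation, where they lie on opposite strands, and whether reads were counted by strand is not given in the sources used here.

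HSPB1 went the other way. Its log2 level was 9.5 to 11.21 with a median of 10.23 in the knockouts, 8.34, 8.91 and 9.75 in HEK28 from 8, 31 and 41 reads, and 11.19, 11.32 and 11.47 in the parental line. The HEK28 libraries were all below the parental ones, and 1 knockout library, of MCFD2, reached into the parental range. HSPB1 fell by 1.10 ± 0.179 on the log2 scale in the mean of the knockouts (limma adjusted p = 3.56e-05) and by 2.33 ± 0.238 in HEK28 (limma adjusted p = 1.05e-07) against the parental line, and by 1.58 in HEK28 replicate 3 alone (limma adjusted p = 8.81e-05).

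Of the Hsp70 machine, the J protein DNAJB1 was lower in the knockouts. It had 4.88 to 6.48 with a median of 5.98 in the knockouts, 6.38, 7.11 and 6.29 in HEK28, and 7.3, 7.08 and 7.02 in the parental line. No knockout library overlapped the parental line, and 1 HEK28 library did. DNAJB1 fell by 1.25 ± 0.18 in the mean of the knockouts (limma adjusted p = 7.24e-06), and HEK28 against the parental line gave -0.54 ± 0.241 (limma adjusted p = 0.0883), or -0.85 with replicate 3 alone (limma adjusted p = 0.0508). DNAJB1 overlaps TECR in the annotation.

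The exchange factors HSPH1 and HSPBP1 were higher in HEK28 and not shown to differ in the mean of the knockouts. HSPH1, the cytosolic Hsp110, had 2.61 to 4.53 with a median of 3.78 in the knockouts, 4.98, 5.11 and 4.25 in HEK28, and 3.54, 3.28 and 3.79 in the parental line. HSPBP1, another Hsp70 exchange factor, had 3.21 to 6.01 with a median of 5.26 in the knockouts. It had 6.53, 7.08 and 5.56 in HEK28 from 16, 60 and 15 reads, and 5.16, 3.99 and 4.74 in the parental line from 7, 6 and 19 reads. All HEK28 libraries were above the parental ones for both genes, by 1.24 ± 0.231 for HSPH1 (limma adjusted p = 2.31e-04) and 1.76 ± 0.387 for HSPBP1 (limma adjusted p = 1.23e-03). These rested on the HEK28 libraries that stood apart: with HEK28 replicate 3 alone the values were 0.71 (limma adjusted p = 0.0772) for HSPH1 and 0.93 (limma adjusted p = 0.195) for HSPBP1. The mean of the knockouts gave 0.11 (limma adjusted p = 0.649) for HSPH1 and 0.43 (limma adjusted p = 0.255) for HSPBP1.

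HSPA8, the constitutive Hsc70, and BAG3, the exchange factor that links Hsp70 to autophagy, did not pass against the parental line. HSPA8 had 6.94 to 8.11 in the knockouts, 6.9, 6.63 and 8.08 in HEK28, and 6.79, 7.27 and 7.52 in the parental line, with overlap throughout. The mean of the knockouts gave 0.40 ± 0.201 (limma adjusted p = 0.127) and HEK28 gave 0.01 ± 0.268 (limma adjusted p = 0.984), while HEK28 replicate 3 alone gave 0.88 (limma adjusted p = 0.0275). BAG3 had 3.39 to 5.67 in the knockouts, 4.57, 2.03 and 5.13 in HEK28 from 3, 1 and 9 reads, and 5.0, 5.43 and 4.95 in the parental line. Its groups overlapped, and it gave -0.44 in the mean of the knockouts (limma adjusted p = 0.43), -1.22 in HEK28 (limma adjusted p = 0.102) and 0.01 in HEK28 replicate 3 alone (limma adjusted p = 0.995).

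**Figure D2:**
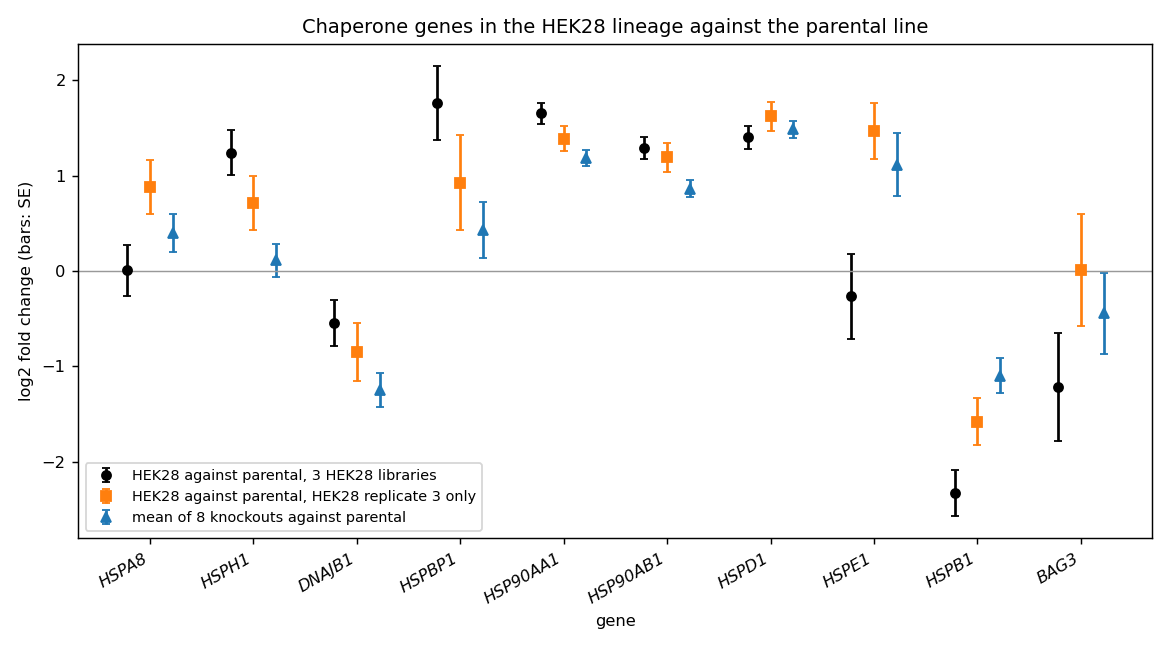
Log2 fold change against the parental line (vertical axis, bars SE) of the 10 genes for HEK28 with 3 libraries, HEK28 with replicate 3 only, and the mean of the 8 knockouts. HSP90AA1, HSP90AB1 and HSPD1 lie above 0 and HSPB1 below 0 in all 3, and HSPE1 lies below 0 only with the 3 HEK28 libraries.

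Other genes of the chaperone network were counted by list in the same comparisons, where 37.6% of all genes passed in the mean of the knockouts, 32.1% in HEK28 and 22.1% in HEK28 replicate 3 alone. Of 14 tested Hsp90 co-chaperones 8 rose and 0 fell in the mean of the knockouts against the parental line, with a median of 0.54, and 9 rose and 0 fell in HEK28, with a median of 1.15. With HEK28 replicate 3 alone 6 rose and 0 fell, with a median of 1.06. PTGES3, the p23 co-chaperone, rose by 1.49 in the knockouts and 1.48 in HEK28 (1.72 with replicate 3 alone). Of the 14 genes of the cytosolic chaperonin TRiC and its partner prefoldin 5 rose and 0 fell in both comparisons, a share near that of all genes, and likewise 5 and 0 with replicate 3 alone, and CCT8 rose by 1.46 in the knockouts and 1.28 in HEK28 (1.91 with replicate 3 alone). Of 6 other Hsp70 genes, 2 rose and 0 fell in the knockouts, led by the Hsp110 gene HSPA4 at 1.96. In HEK28 2 rose and 1 fell, with a median of -0.09 (1.29 with replicate 3 alone). The gene that fell was HSPA13, whose protein is microsomal and not cytosolic. Of 12 other J proteins 1 rose and 2 fell in the knockouts, and 2 rose and 1 fell in HEK28 (1 and 2 with replicate 3 alone), fewer than the share of all genes in the first 2 counts. Of 7 other Hsp70 cofactors 4 rose and 2 fell in both comparisons (3 and 1 with replicate 3 alone). Among them ST13, the Hip cofactor, rose by 0.77 in the knockouts and BAG4 and BAG5, of the BAG family of exchange factors, fell by 1.22 and 0.80 there. HSPA4 is on this list and on the Hsp70 list, and is counted in both. Of 10 other mitochondrial chaperones and proteases 1 rose and 0 fell in the knockouts (median -0.02), and 2 rose and 1 fell in HEK28 (1 and 1 with replicate 3 alone). Of 16 endoplasmic reticulum chaperones 3 rose and 3 fell in both comparisons (1 and 0 with replicate 3 alone).

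Known HSF1 targets outside the 10 genes moved both ways. Of 20, 8 rose and 3 fell in the mean of the knockouts, where 37.6% of all genes passed. In HEK28 6 rose and 4 fell, where 32.1% passed, with a median of 0.11 (0.72 with replicate 3 alone). This list shares genes with the lists above, so the counts are not separate. HSPA4, HSPA4L, CHORDC1, AHSA1, FKBP4 and TCP1, which rose in the knockouts, and DNAJB6, which fell there, are counted above too. IER5 is also on the immediate early list. HSF1 itself, at 1 to 6 reads per library in HEK28 and 9 to 13 in the parental line, fell in HEK28 by 1.76 (limma adjusted p = 0.0142), and with replicate 3 alone the value was -0.50 (limma adjusted p = 0.633). The inducible Hsp70 genes HSPA1A and HSPA1B, near-identical copies whose reads cannot be told apart with confidence, had group means of 8.44 to 9.64 and 9.68 to 10.93 in the knockouts, 7.47 and 8.54 in HEK28, and 8.26 and 9.47 in the parental line. Neither passed in the mean of the knockouts (0.69 for HSPA1A and 0.82 for HSPA1B, limma adjusted p = 0.134 and 0.171) or in HEK28 (-0.78 and -0.93, limma adjusted p = 0.22 and 0.265). The HEK28 values turned to 1.18 for HSPA1A (limma adjusted p = 0.0239) and 1.38 for HSPA1B (limma adjusted p = 0.0919) with replicate 3 alone, like HSPE1. Immediate early genes, which report recent serum or handling stimuli, moved with these comparisons: 0 of 14 rose and 7 fell in the mean of the knockouts, and 0 rose and 8 fell in HEK28 (7 with replicate 3 alone), EGR1 by 3.38 in the knockouts and 3.79 in HEK28 (3.92 with replicate 3 alone). Their part in the chaperone values was not tested.

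Against HEK28, from which the knockouts were made, the calls depended on the 2 HEK28 libraries that stood apart. Those 2 were singled out by unlikeness to the knockout mean, so fewer calls without them are partly built in. Over the 8 knockouts 38 of 80 gene by line values passed, where 14.5% of all tests did, and the 8 comparisons share the 3 HEK28 libraries. The count was 6 for CANX (19.1% of all genes passing), 5 for CALR (18.4%), 1 for LMAN1 (5.5%) and 6 for MCFD2 (18.3%). In the autophagy lines 2 passed in the GABARAP knockout (5.75% of all genes), 3 in GABARAPL1 (10.1%), 9 in GABARAPL2 (26.5%) and 6 in ATG7 (12.8%). Leaving out 1 HEK28 library gave 21 of 80 without replicate 1, 20 without replicate 2 and 60 without replicate 3. Without HEK28 replicates 1 and 2, 11 of 80 passed, where 3.13% of all tests did, and a lone library is then assumed to vary like the other groups. For the mean of the 8 knockouts, 7 of 10 passed, where 25.1% of all genes did, 4 passed without HEK28 replicate 2, and 0 passed without replicates 1 and 2, with 3 at an unadjusted p under 0.05 (limma, 3.05% of all genes passing). HSPE1 changed sign: the mean of the knockouts minus HEK28 was 1.38 with all libraries (limma adjusted p = 0.00462) and -0.35 without those (limma adjusted p = 0.591).

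The 11 values that passed with HEK28 replicate 3 alone came from 3 lines. In the CALR knockout HSPH1 (-1.18), HSPBP1 (-1.84) and HSP90AA1 (-0.46) were lower and HSPB1 (1.15) was higher than in HEK28. In the MCFD2 knockout HSPA8 (-1.01), HSPH1 (-1.37), DNAJB1 (-1.15) and HSP90AB1 (-0.69) were lower and HSPB1 (1.20) was higher. In the GABARAPL2 knockout HSP90AA1 (-0.53) and HSP90AB1 (-0.87) were lower. Their limma adjusted p ran from 0.0021 to 0.0443. With only the 6 samples of each pair of groups in the fit, 0 of 80 passed (limma, 31 at an unadjusted p under 0.05), and 35 calls were made over all genes and lines.

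Setting each knockout against the mean of the other 7 needs no HEK28 library. Here 14 of 80 values passed, where 2.42% of all tests did (limma, 34 at an unadjusted p under 0.05). They were 5 in MCFD2, 3 in CALR, 3 in GABARAPL2, 2 in GABARAP and 1 in LMAN1. The count was 9 without CALR replicate 2, GABARAPL2 replicate 1 or GABARAPL2 replicate 2. In CANX, GABARAPL1 and ATG7 0 passed (3, 3 and 5 at an unadjusted p under 0.05), where 1.47%, 0.357% and 1.47% of all genes passed. With voom weights on recovered reads 23 passed, and with only the 24 knockout libraries in the fit 24 did. Calls over all genes also rose, to 10.2% and 5.59%. An F test over the 8 lines passed for 7 of the 10 genes, where 13.4% of all genes passed. It passed for 9 of the 9 genes with recovered reads under voom weights, where 50.1% of all genes passed, and for 9 of 10 with only the 24 knockout libraries in the fit, where 27.0% did.

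**Figure D3:**
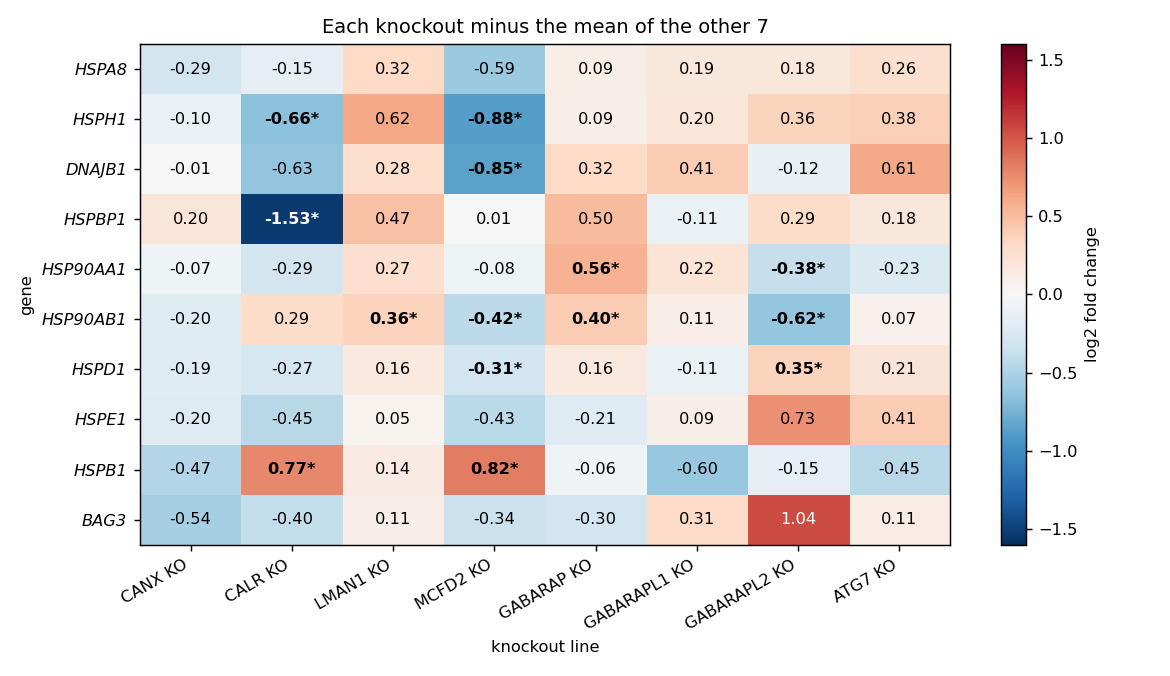
Log2 fold change of each of the 10 genes (rows) in each knockout line (columns) minus the mean of the other 7 lines, in colour and as printed values, with a star and bold type where the limma adjusted p was under 0.05. The 14 starred values include 5 in MCFD2, and HSPB1 is starred as higher in CALR and MCFD2.

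The MCFD2 knockout stood lowest in most of the Hsp70 machine and highest in mean HSPB1. It was the lowest of the 8 lines in HSPA8, HSPH1, DNAJB1 and HSPD1. HSPH1 had 2.95, 3.07 and 2.61 in MCFD2 knockout cells, and DNAJB1 had 5.12, 5.04 and 5.27. MCFD2 libraries overlapped CALR libraries in both genes and lay below those of the other 6 lines. The share of all tested genes with such a gap was not counted, so it is given as a description. HSPH1 fell by 0.88 (limma adjusted p = 0.00328), DNAJB1 by 0.85 (limma adjusted p = 0.00626), HSP90AB1 by 0.42 (limma adjusted p = 0.0055) and HSPD1 by 0.31 (limma adjusted p = 0.0439) against the other 7, where 5.09% of all genes passed. HSPB1, at 11.02, 11.21 and 10.62, rose by 0.82 (limma adjusted p = 0.00734). HSPA8, at 7.02, 7.26 and 6.94, gave -0.59 and did not pass. DNAJB1 held with every library left out in turn. HSPH1 was lost without MCFD2 replicate 3 (limma adjusted p = 0.0557), HSP90AB1 without MCFD2 replicate 1 (0.115) and HSPB1 without MCFD2 replicate 1 or 2 (0.0644 and 0.0756). HSPD1 was lost with 15 of the 24 libraries left out, and under quantile scaling it gave -0.14 (limma adjusted p = 0.359). Of 14 TRiC and prefoldin genes 0 rose and 4 fell in this line (CCT2 by 0.69, CCT6A by 0.67, TCP1 by 0.60). Of 14 Hsp90 co-chaperones 0 rose and 2 fell (PPID by 1.35 and SUGT1 by 0.79). Only 1 of 20 HSF1 targets passed, which was TCP1 again.

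The CALR knockout shared the low HSPH1 and high HSPB1 and had the lowest HSPBP1. HSPBP1 had 3.21, 3.6 and 4.35 in CALR knockout cells, from only 6, 16 and 64 reads. Every one was below the 21 libraries of the other lines, which held for 0.581% of all genes. It fell by 1.53 ± 0.293 (SE, limma adjusted p = 0.00336, 2.97% of all genes passing), and the call was lost without CALR replicate 1 (limma adjusted p = 0.0987) or 2 (limma adjusted p = 0.0512). HSPH1, at 3.26, 2.93 and 3.03, fell by 0.66 (limma adjusted p = 0.0383) and was lost with 10 of the 24 libraries left out. HSPB1, at 10.87, 10.92 and 10.92, rose by 0.77 (limma adjusted p = 0.0192) and was lost when any 1 of its own libraries was left out (limma adjusted p = 0.103 to 0.13). DNAJB1 gave -0.63 (limma adjusted p = 0.0576). In the same line 6 of 16 endoplasmic reticulum chaperones rose and 1, CALR itself, fell (HSPA5 rose by 0.90 and PDIA4 by 0.85), while 0 of 20 HSF1 targets passed.

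The Hsp90 genes were highest together in the GABARAP knockout and lowest together in the GABARAPL2 knockout. HSP90AA1 had 12.79, 12.89 and 12.88 in GABARAP and 12.05, 12.07 and 12.0 in GABARAPL2 knockout cells. HSP90AB1 had 9.12, 9.09 and 9.06 in GABARAP and 8.27, 8.17 and 8.16 in GABARAPL2. Only for HSP90AA1 did all GABARAPL2 libraries lie below the other 21, which held for 0.599% of all genes. In GABARAP HSP90AA1 rose by 0.56 (limma adjusted p = 4.06e-04) and HSP90AB1 by 0.40 (limma adjusted p = 0.0118, and 0.0631 to 0.0819 without 1 of its own libraries), where 2.77% of all genes passed. In GABARAPL2 HSP90AB1 fell by 0.62 (limma adjusted p = 1.42e-04) and HSP90AA1 by 0.38 (limma adjusted p = 0.0103, and 0.072 to 0.0905 without 1 of its own libraries), where 4.18% passed. The direct contrast of these lines was not fitted. FKBP4, an Hsp90 co-chaperone, rose by 0.91 in GABARAP (limma adjusted p = 0.0256). Of 20 HSF1 targets, 2 rose there, FKBP4 being 1 of them, and 0 fell.

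The LMAN1 knockout had HSP90AB1 at 8.95, 9.21 and 9.01, which rose by 0.36 (limma adjusted p = 0.0435, 1.05% of all genes passing) and was lost with 21 of 24 libraries left out and under quantile scaling (limma adjusted p = 0.217). NEFM, a neurofilament gene of the HEK293 marker list, moved in the direction of HSP90AB1 in all 4 lines where HSP90AB1 passed. It rose by 0.41 in LMAN1 and 0.39 in GABARAP, and fell by 0.43 in MCFD2 and 0.38 in GABARAPL2 (limma adjusted p = 0.0124, 0.00926, 0.00253 and 0.00838). NEFM was also among the genes most like HSP90AB1 over the knockout libraries (r = 0.88). Other genes of the list that passed in these lines moved both ways. NEFL rose with HSP90AB1 in LMAN1 (0.41, limma adjusted p = 0.0156). ENO2 rose in MCFD2 (1.31, limma adjusted p = 0.0042) and VIM in GABARAPL2 (0.65, limma adjusted p = 0.00507), where HSP90AB1 fell. The summed level of that list was 18900 to 26100 in LMAN1, 19600 to 21500 in GABARAP, 13100 to 15300 in MCFD2 and 13600 to 14900 in GABARAPL2 libraries. This sum includes NEFM, at a median log2 level of 13.79, so it is not separate from NEFM. The part of the listed genes in the Hsp90 values was not tested.

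HSPD1 ran against Hsp90 in the GABARAPL2 knockout. HSPD1 had 11.57, 11.55 and 11.39 there and rose by 0.35 (limma adjusted p = 0.0235, and 0.0673 to 0.181 without 1 of its own libraries). HSPE1, at 8.59, 8.49 and 8.51, gave 0.73 and did not pass. BAG3 had 5.62, 5.67 and 5.48, above the 21 other knockout libraries, and gave 1.04 with a limma adjusted p of 0.18 (0.95 and 3.65e-04 with voom weights), in a comparison where 3.57% of all genes had every library above. In this line 3 of 14 TRiC and prefoldin genes rose and 0 fell (PFDN2 by 1.16, PFDN4 by 0.64 and CCT8 by 0.56), and HSPA9, the mitochondrial Hsp70, rose by 0.64.

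The other lines gave fewer differences. In the LMAN1 knockout HSPH1 had 4.1, 4.53 and 3.95 and HSPA8 8.11, 7.44 and 8.05, the highest means of any knockout, with differences of 0.62 and 0.32 from the other 7 that did not pass. In the ATG7 knockout DNAJB1 had 6.47, 6.34 and 6.46, the highest mean of the knockouts, and gave 0.61 without passing. In the GABARAPL1 knockout HSPB1 had 9.72, 9.62 and 9.76, the lowest mean of the knockouts, and gave -0.60 without passing. In the CANX knockout BAG3 had 3.85, 3.65 and 5.14 and gave -0.54, and its libraries spanned most of the knockout range.

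The order of the groups by mean level differed by gene, and neighbours in it mostly overlapped. Such overlaps were not counted over all tested genes, so the gaps are given as descriptions. For HSP90AA1 the order from low to high was parental, GABARAPL2, CALR, ATG7, MCFD2, CANX, GABARAPL1, LMAN1, HEK28 and GABARAP, and 6 of its 9 neighbouring pairs overlapped. Its gaps without overlap lay above the parental line, above GABARAPL2 and above CANX. For HSP90AB1 the order was parental, GABARAPL2, MCFD2, CANX, ATG7, GABARAPL1, CALR, LMAN1, GABARAP and HEK28, with gaps above parental, above CANX and above GABARAPL1. For HSPB1 it was HEK28, GABARAPL1, CANX, ATG7, GABARAPL2, GABARAP, LMAN1, CALR, MCFD2 and parental, with gaps above ATG7 and above LMAN1. For HSPH1 it was MCFD2, CALR, parental, CANX, GABARAP, GABARAPL1, GABARAPL2, ATG7, LMAN1 and HEK28, with gaps above CALR and above GABARAPL1. In HSPA8, DNAJB1 and HSPBP1 all 9 neighbouring pairs overlapped. In HSPD1, HSPE1 and BAG3 8 of 9 overlapped, with the gap above the parental line for each.

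The spread between samples differed among the genes. The median SD within knockout lines was 0.05 for HSP90AB1, 0.07 for HSP90AA1, 0.11 for HSPB1, 0.12 for HSPD1, 0.15 for HSPH1 and 0.17 for HSPA8, against 0.32 over all tested genes. It was 0.24 for DNAJB1 and HSPE1, 0.45 for HSPBP1 and 0.46 for BAG3. BAG3 and HSPBP1, the noisiest, had the fewest reads among the members with recovered reads, 812 and 1171 in all libraries together, where HSP90AB1 had 82205.

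Pairs of genes kept unequal ratios across the lines. The log2 difference of HSP90AA1 over HSP90AB1 averaged 3.12 ± 0.05 in CALR, 3.36 ± 0.08 in ATG7, 3.84 ± 0.06 in GABARAPL2 and 3.93 ± 0.2 in MCFD2 knockout cells, 3.67 ± 0.18 in HEK28 and 3.31 ± 0.09 in the parental line (SD, n = 3 each). The CALR line thus carried HSP90AB1 near the level of the GABARAP line but HSP90AA1 near that of the GABARAPL2 line. HSPB1 over HSPH1 averaged 8.07 ± 0.06 in MCFD2 and 7.83 ± 0.2 in CALR, close to the parental 7.79 ± 0.22, while the other 6 knockouts averaged between 5.86 and 6.45 and HEK28 4.22 ± 1.13. These ratios depend on the counted lengths and are read only between groups.

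Over the 24 knockout libraries, which share lines, libraries and depth, the genes varied together as follows, given as descriptions. Pearson's r was 0.71 for HSPH1 with DNAJB1 and with HSPD1, 0.69 for HSPH1 with HSPA8, 0.68 for BAG3 with HSPE1, 0.67 for HSPA8 with HSPD1 and HSPE1, 0.67 for HSPD1 with HSPE1, and 0.62 for HSP90AA1 with HSP90AB1. HSPB1 was opposite to DNAJB1 (-0.70) and HSPH1 (-0.57). The correlation of a member with log2 reads ran from -0.25 for DNAJB1 to 0.36 for BAG3.

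The tested genes most like each member over those libraries were mostly not chaperones. Most like HSP90AA1 were its pseudogene HSP90AA2P (0.93), EMG1 and DDX24, and most like HSP90AB1 were ABCF1 (0.90), NEFM and EIF3A. HSPD1 was nearest to HDGF (0.89), CCT7, a TRiC subunit, and YBX1. HSPE1 was nearest to PSMB3 (0.88), HSPA8 to UQCRB (0.88), HSPH1 to MTATP6P1 (0.91), DNAJB1 to PLEKHB2 (0.91), HSPBP1 to CALR (0.83), HSPB1 to AK4 (0.86) and BAG3 to TRUB1 (0.80). Pseudogenes of members were listed too, and reads shared with them cannot be told apart here: HSP90AA2P had 9322 reads, HSP90AB3P 2864 and HSPD1P1 1119.

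Genes next to several members on the chromosome lay in the same direction as them, which was looked at after the values had been seen. Of the tested genes within 2 Mb of DNAJB1 on chromosome 19, 47 of 61 were lower in the MCFD2 knockout than in the other 7, with a median of -0.47. In the CALR knockout 50 of these 61 were lower (median -0.33), and CALR itself lies within the same stretch. Around HSP90AB1 on chromosome 6, 29 of 34 were lower in MCFD2 (median -0.72) and 24 of 34 in GABARAPL2 (median -0.28). Around HSPBP1 on chromosome 19, 39 of 47 were lower in CALR (median -0.31), and around HSPH1 on chromosome 13, 7 of 10 in MCFD2 (median -0.34). Around HSP90AA1 on chromosome 14, 27 of 32 were higher in GABARAP (median 0.23) and 27 of 32 lower in GABARAPL2, where the neighbours' median of -0.37 was close in size to the change in HSP90AA1 itself.

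In 7 of the 14 values that passed, the neighbours' median lay in the same direction by at least 0.2. The other 7, which include HSPB1 in CALR (neighbours 0.11) and in MCFD2 (-0.04) and HSPD1 in GABARAPL2 (0.14), had neighbours closer to 0. The share among values that did not pass was not counted. Some of these had such neighbours too, as DNAJB1 in CALR (neighbours -0.33) and HSP90AA1 in GABARAPL1 (0.28). Others lay opposite, as HSPA8 in LMAN1 (0.31, neighbours -0.49) and HSPH1 in GABARAP (0.09, neighbours -0.58). Against the parental line, the neighbours of HSP90AB1 (median -0.23) and HSPD1 (-0.10) were not higher in the mean of the knockouts, those of HSP90AA1 were (0.23), and those of DNAJB1 (-0.29) and HSPB1 (-0.21) were lower, where the median of all tested genes was 0.10. The part of the chromosomal surroundings in the chaperone values was not tested.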

How the data were processed

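The deposited table holds the authors' log2 values per gene for 30 samples. Per the submitters' processing notes FastQC, cutadapt, TopHat2, Bowtie and hg38 were used. Counter, annotation and normalisation: not given in the sources used here. From the steps of the values, each is log2 of whole reads plus 0.5 over a gene length and a library size, and reads were resolved for 16910 genes. A count test had been planned for counts; as the values are log2, limma 3.58.1 in R 4.3.3 was fitted to them (trend, robust, 1 model, 1 coefficient per group, two-sided, Benjamini-Hochberg over 11191 genes, threshold 0.05). A gene was tested with at least 10 reads at the median depth in 3 libraries and 15 in all. The 65 genes whose reads were not resolved were tested without this filter. The fit was tested on simulated data. Titles and genotypes set the groups; 1 LMAN1 genotype is misspelled, and parental samples carry HEK28 as their cell line label. Positions are from GENCODE (GRCh38) and promoter letters from RefSeq. Members and lists were chosen with earlier results of these data known. Besides the members, up to 3 genes per list with the largest changes among those that passed, and the 3 genes most correlated with a member, were eligible to be named; HSPA1A, HSPA1B and HSF1 were named after their values were seen. Alternatives were quantile and median scaling, voom weights, other filters, a replicate block, fewer samples, and each library left out. Replicate numbers were not used to pair samples in the main fit. Depth limits precision in genes with few reads.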

Additional observations from a re-analysis of the deposited data

Results flagged for a closer look

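Of the 10 genes, 7 differed among the 8 knockout lines by limma's F test over the lines. The adjusted p was 2.81e-05 for HSP90AB1 and 1.01e-04 for HSP90AA1, both highest in GABARAP and lowest in GABARAPL2 knockout cells, with line means spanning 0.89 and 0.81 on the log2 scale. It was 0.00184 for HSPB1, highest in MCFD2 and lowest in GABARAPL1 (1.25 apart), and 0.002 for HSPH1, highest in LMAN1 and lowest in MCFD2 (1.32 apart). It was 0.00388 for DNAJB1, highest in ATG7 and lowest in MCFD2 (1.28 apart), and 0.00464 for HSPD1, highest in GABARAPL2 and lowest in MCFD2 (0.58 apart). It was 0.0315 for HSPBP1, highest in GABARAP and lowest in CALR (1.78 apart). The other 3 passed with voom weights (limma adjusted p = 0.00727 for HSPA8, 0.00793 for HSPE1 and 0.00886 for BAG3), where 50.1% of all genes passed. Of the 7, HSPBP1 alone lost its call when 1 library was left out, in 3 of 24 cases. Each line is 1 line, so a difference between targeted genes and a difference between lines cannot be told apart.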

How the results depend on the processing

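Of the values that passed, all kept their direction under every alternative run except HSPE1 against HEK28, which turned to -0.27 in GABARAPL1 and -0.35 in the mean of the 8 knockouts without HEK28 replicates 1 and 2. Without those libraries, the calls against HEK28 went to 11 of 80 (38 with all libraries) and those of the mean of the 8 knockouts to 0 of 10 (7 with all). With only the 6 samples of each pair of groups in the fit, 0 of 80 passed against HEK28. Each knockout against the other 7 gave 23 with voom weights and 24 with only the knockout libraries, beside 14, and differences among the knockouts 9 in both, beside 7. HSP90AA1 has no voom value, since its reads were not recovered. Leaving out 1 library in turn gave 20 to 60 calls for the 8 knockouts against HEK28 (lowest without HEK28 replicate 2 and highest without HEK28 replicate 3), 4 to 9 for their mean, 6 to 8 for HEK28 against the parental line, 5 to 6 for the mean of the knockouts against it, 9 to 14 for each knockout against the other 7, and 6 to 7 for differences among the knockouts. In the mean of the knockouts against the parental line, HSPE1 was lost without parental replicate 3 (limma adjusted p = 0.0508). Of the 14 values against the other 7 lines, 3 were kept with every library left out (DNAJB1 in MCFD2, HSP90AA1 in GABARAP and HSP90AB1 in GABARAPL2), 12 were kept under quantile scaling and 13 under median centring. With the replicate number as a replicate block the counts were 36, 7, 6, 6, 15 and 7, in that order of comparisons. The deviations of same-numbered samples had a median r of -0.01 (-0.247 to 0.386), beside 0.001 for samples of other numbers. The labels do not say what the numbers mean, and shared handling was not tested. Quantile scaling moved the median of all genes by -0.141 to -0.267 against HEK28 and by -0.137 for the mean of the knockouts against the parental line. Causes of these dependences were not tested. HEK28 libraries held 1 to 84 reads of HSPE1, HSPB1 and BAG3, where counting error is large. Library depth did not order the HSPE1 reads: replicate 2 had 11 of 411652 reads and replicate 3 had 84 of 304642.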
